A study of Homo sapiens with 10 samples.

Results

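Heme and iron handling was followed through 10 genes in A549 cells, a human lung adenocarcinoma line, and in A549/DDP cells, a derivative of that line that is resistant to cisplatin (DDP). The genes were taken by symbol as a list of enzymes, carriers and regulators, chosen with earlier results of these data known. No threshold was set on their values, and all 10 were found among the 58037 gene identifiers of the tables. They were HMOX1, HMOX2, BLVRB, FTH1, FTL, TFRC, SLC40A1, SLC11A2, IREB2 and FECH. The series held 10 libraries of cells kept at low passage in the same medium. Each line had 2 m6A-seq libraries, in which RNA fragments carrying N6-methyladenosine (m6A) were pulled down with an antibody, and 2 input libraries of RNA that was not pulled down. A further pair of A549 inputs, whose labels name no other experiment, was far shallower, had a far larger mitochondrial share, and entered only as an alternative. Each line is a single cell line, and nothing in the labels says that replicates were separate cultures, so p-values measure the spread between these libraries, which may be technical.

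Cells make heme in mitochondria, where ferrochelatase (FECH) inserts iron into the porphyrin ring in the last step. Heme is opened by the heme oxygenases, HMOX1 being the inducible and HMOX2 the constitutive enzyme, and the pathway goes on to biliverdin and its reductases, of which BLVRB is one. Iron enters through the transferrin receptor TFRC and the endosomal carrier SLC11A2 (DMT1), is stored in ferritin shells of the heavy and light chains FTH1 and FTL, and leaves through the only known exporter, ferroportin (SLC40A1). Iron regulatory proteins, one of them encoded by IREB2, bind iron-responsive elements in the mRNAs of ferritin, TFRC, ferroportin and SLC11A2. HMOX1, FTH1, FTL and SLC40A1 are also known targets of Nrf2, the factor held in check by Keap1.

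The input libraries held 29225501 to 35286514 expected counts on genes, and the further A549 pair 855034 and 982036, of which 75.2% and 73.9% were mitochondrial. In the 4 main inputs 0.0363% to 0.0547% were mitochondrial, so the further pair differed in more than depth. Of 5 epithelial markers, 4 stood at 1 TPM (transcripts per 1000000) or more in all 4 inputs, led by the keratins KRT8 and KRT18. Their sum was 3684 to 7921 TPM in A549 and 14736 to 14741 TPM in A549/DDP, whereas KRT19 was at 33.3 and 64.0 TPM in A549 and at 9.24 and 0 TPM in A549/DDP. All 4 endothelial markers stayed under 1 TPM. Among the red cell markers, a lineage in which heme genes are abundant, ALAS2, SLC4A1, HBG1 and HBG2 were listed at 0 in every input. The summed level of the 7 red cell markers was 0.17 to 0.35 TPM in A549 and 1.91 to 4.59 TPM in A549/DDP. For 6 alveolar type 2 markers the sums were 0 to 1.51 and 2.16 to 4.49 TPM, with SFTPC, SFTPA1 and SFTPA2 at 0 throughout, and for 5 fibroblast markers 5.31 to 9.98 and 3.57 to 21.9 TPM. Of 5 immune markers, 3 stayed under 1 TPM, PTPRC and CD3E among them, and CD68 accounted for most of a sum of 154 to 156 TPM in A549 and 130 to 146 TPM in A549/DDP. The part of these markers in the results was not tested. KEAP1 was 2.53-fold higher and NFE2L2, which encodes Nrf2, 2.19-fold lower in A549/DDP (adjusted p = 0.0136 and 0.0122, edgeR quasi-likelihood test).

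The first comparison asked which heme and iron genes differed in RNA level between the resistant and the parental line. HMOX1, SLC40A1, TFRC and FTL were higher in A549/DDP, and with the first A549 pair none of the 10 genes was called lower in edgeR, DESeq2 or limma, or in edgeR at an unadjusted p under 0.05. The rises covered inducible heme breakdown, iron export, transferrin-bound iron uptake and the light ferritin chain, while HMOX2, BLVRB, FTH1, SLC11A2, IREB2 and FECH did not pass the test. That is 4 of 10 genes with an adjusted p-value under 0.05, against 14.9% of the 16406 genes tested (6.85% higher and 8% lower). The median log2 fold change of the 10 genes was 0.51, and that of all genes tested was 0.00. Because the list was chosen with earlier results of these data known, these shares and medians are only a description. The levels of the lines did not overlap for 7 of the 10 genes, but this held for 62.4% of all genes tested. These are levels in bulk RNA, in which more cells with a transcript and more transcript per cell cannot be told apart.

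HMOX1 and SLC40A1 changed by similar amounts, and their order turned with the fit. The level of HMOX1, in CPM (counts per 1000000, TMM-scaled), was 27.1 and 21.3 in the A549 inputs and 142 and 132 in the A549/DDP inputs. Every A549/DDP library lay far above both A549 libraries. The difference was 5.67-fold, with a 95% interval of 3.93 to 8.16, or 2.50 ± 0.22 (SE, 2 against 2 libraries) on the log2 scale, with an adjusted p of 0.00314. It was past the threshold in all 14 alternative fits. HMOX2, its constitutive counterpart, stood at 38.1 and 34.1 CPM in A549 and at 39.6 and 36.2 CPM in A549/DDP. The HMOX2 values of the lines overlapped, the log2 difference was 0.07 with a 95% interval of -0.51 to 0.65 (adjusted p = 0.886), and its sign turned with the scaling or the libraries used.

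BLVRB reduces biliverdin and flavins. Its CPM was 97.1 and 72.5 in A549 and 95.3 and 105 in A549/DDP. One A549 library lay inside the A549/DDP range, and the log2 difference of 0.24 (95% interval -0.28 to 0.76, adjusted p = 0.523) was negative when the shallow A549 inputs replaced the first pair or were pooled with it without a term for the pair. FECH, at the end of heme synthesis, was at 34.1 and 49.0 CPM in A549 and 53.6 and 75.4 CPM in A549/DDP. Its replicates spread widely although the lines did not overlap. The log2 difference of 0.63 ± 0.29 (SE) did not pass (adjusted p = 0.189), except when A549 replicate 2 was left out (0.91, adjusted p = 0.0367).

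**Figure D1:**
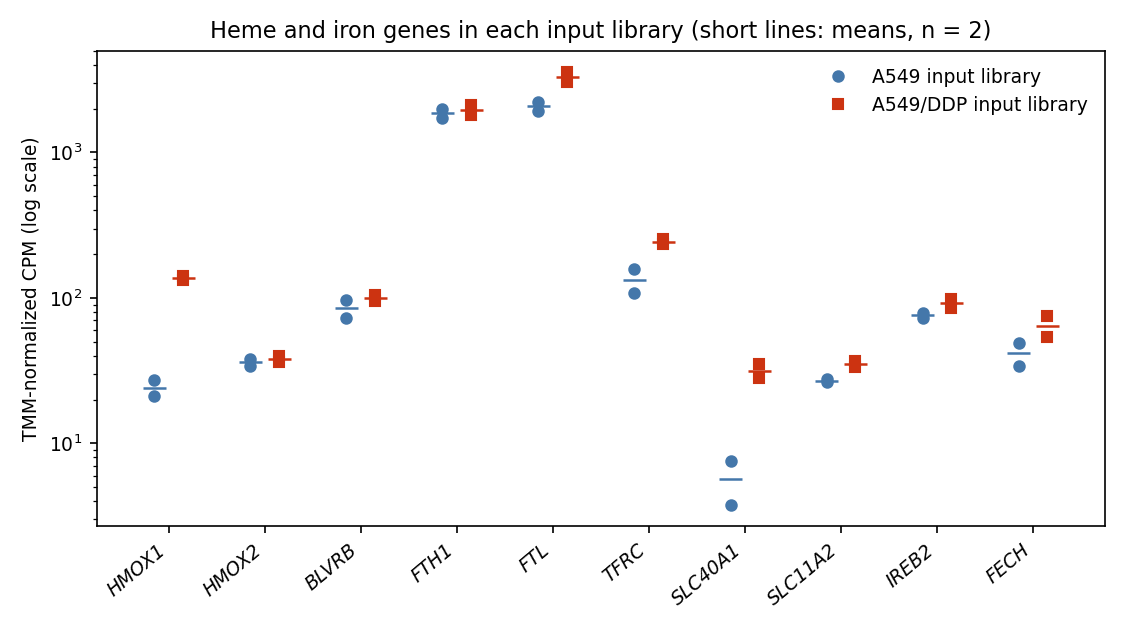
TMM-normalized CPM (y axis, log scale) of the 10 genes in the 2 A549 inputs (circles) and the 2 A549/DDP inputs (squares), with short lines at the means. HMOX1 and SLC40A1 show the widest gaps between the lines, and the points of HMOX2, BLVRB and FTH1 overlap.

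The ferritin chains were by far the most abundant of the 10 transcripts. FTL was at 2236 and 1941 CPM in A549 and at 3556 and 3048 CPM in A549/DDP. Both A549/DDP values lay above both A549 values. The rise was 1.58-fold (95% interval 1.21 to 2.06), with a log2 difference of 0.66 ± 0.16 (SE) and an adjusted p of 0.0417. The call was lost when either A549/DDP library was left out, with 0.53 (adjusted p = 0.245) lacking the first and 0.76 (adjusted p = 0.0962) lacking the second. FTH1 stood at 1982 and 1729 CPM in A549 and at 2131 and 1808 CPM in A549/DDP. These ranges overlapped, and the log2 difference was 0.09 with a 95% interval of -0.30 to 0.47 (adjusted p = 0.783). Both chains have numbered processed pseudogenes with near-identical sequence, 25 for FTH1 and 16 for FTL in the tables. The pseudogenes took 0.169% to 0.246% of the summed FTH1 counts and 0.0367% to 0.135% of the summed FTL counts in these inputs. Adding their counts left the log2 difference of FTL at 0.66.

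TFRC, which brings transferrin-bound iron into the cell, was at 108 and 157 CPM in A549 and at 234 and 253 CPM in A549/DDP. The A549/DDP libraries lay close together and above both A549 libraries, which differed more. The log2 difference was 0.88 ± 0.22 (SE), a 1.84-fold rise (95% interval 1.27 to 2.68), with an adjusted p of 0.0487, the closest to the threshold of the 4. It did not pass when the first (0.91, adjusted p = 0.115) or the second (0.82, adjusted p = 0.152) A549/DDP library was left out, or with limma on log2(TPM + 1) (0.68, adjusted p = 0.213). SLC11A2, which moves iron out of the endosome, was at 26.6 and 27.5 CPM in A549 and at 36.9 and 33.4 CPM in A549/DDP. Its values did not overlap between the lines, and its log2 difference of 0.38 had a 95% interval of -0.24 to 1.00 (adjusted p = 0.375).

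SLC40A1 was the least abundant of the 10 genes. It held 125 and 269 expected counts in the A549 inputs and 1041 and 981 in the A549/DDP inputs, or 3.80 and 7.59 CPM against 35.1 and 28.1 CPM. The lines were well apart, although the A549 libraries differed from each other by more than the A549/DDP libraries did in proportion. The log2 difference was 2.47 ± 0.46 (SE), a 5.55-fold rise (95% interval 2.56 to 12.04), with an adjusted p of 0.0209. It was kept when any 1 of these libraries was left out (2.04 to 3.04). It was not past the threshold with limma on log2(TPM + 1), where the length-scaled difference was 1.76 (adjusted p = 0.0647). The effective transcript length assigned to SLC40A1 was 1592 bases in A549 replicate 1 and 3310 to 3323 bases in the other inputs, so that the length-scaled levels of the A549 libraries, 3.45 and 3.77 TPM, lay closer together than their CPM.

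IREB2 encodes iron regulatory protein 2, which binds iron-responsive elements when iron is scarce. Its CPM was 79.4 and 72.5 in A549 and 85.9 and 98.9 in A549/DDP. The A549/DDP values were the higher, but the log2 difference of 0.28 (95% interval -0.18 to 0.74) did not pass (adjusted p = 0.371).

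The choice of A549 libraries moved these calls. With the further, shallow A549 pair in place of the first, FTL (0.10, adjusted p = 0.649) and SLC40A1 (1.34, adjusted p = 0.216) were not called by edgeR, and BLVRB was called lower (-0.84, adjusted p = 0.0344) in a fit where the median over all genes was 0.80. With both pairs and no term for the pair, FTL (0.21, adjusted p = 0.859), TFRC (1.15, adjusted p = 0.126) and SLC40A1 (2.24, adjusted p = 0.0554) were not called. With such a term all 4 were called, but the term takes up the level of the further pair. That fit again sets A549/DDP against the first pair, so it cannot show whether the calls hold with the further pair.

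**Figure D2:**
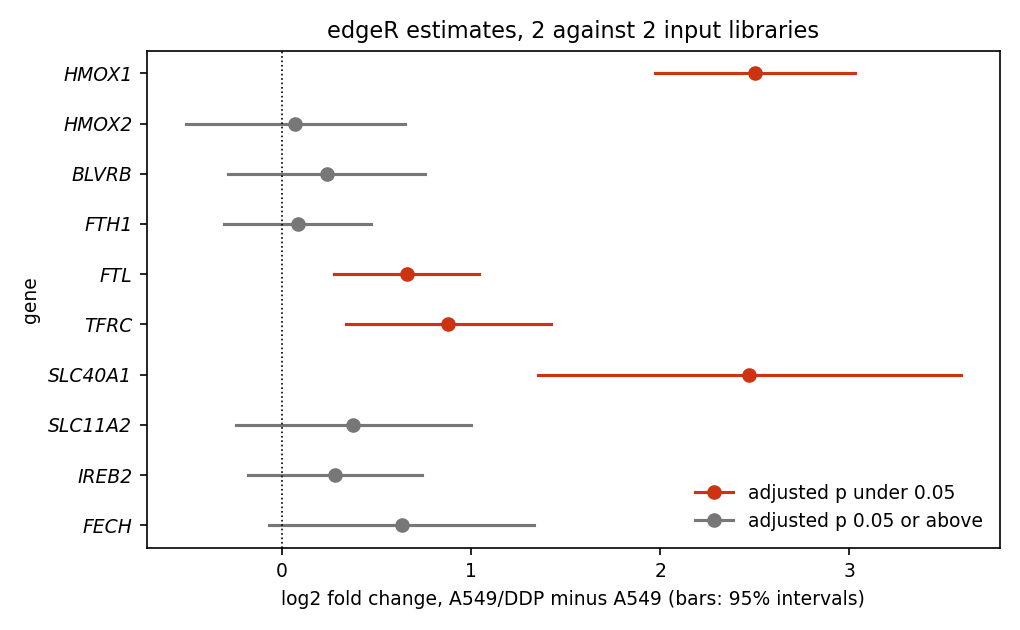
Log2 fold change of each gene (x axis, A549/DDP minus A549, edgeR, 2 against 2 inputs) with its 95% interval. Intervals of HMOX1, FTL, TFRC and SLC40A1 lie above 0, and those of the other 6 genes include it.

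Levels of different genes were compared per transcript length, in TPM. In A549 the order by mean TPM was FTH1 (4353 ± 138, SD, n = 2), FTL (4229 ± 36.0), BLVRB (179 ± 10.9), TFRC (128 ± 53.7), HMOX2 (70.7 ± 6.17), FECH (50.5 ± 19.5), IREB2 (28.9 ± 2.13), HMOX1 (25.3 ± 6.54), SLC11A2 (14.8 ± 3.37) and SLC40A1 (3.61 ± 0.23). In A549/DDP it was FTL (6772 ± 624), FTH1 (4581 ± 561), BLVRB (214 ± 29.0), TFRC (198 ± 3.97), HMOX1 (149 ± 2.55), FECH (80.8 ± 31.7), HMOX2 (61.1 ± 5.56), IREB2 (39.8 ± 3.67), SLC11A2 (27.05 ± 13.0) and SLC40A1 (14.7 ± 2.20). HMOX1 stood at rank 8 of 10 in A549 and rank 5 in A549/DDP. The means of neighbours in this order differed by no more than the larger of their SDs for FTH1 and FTL, BLVRB and TFRC, and IREB2 and HMOX1 in A549. The same held for BLVRB and TFRC, FECH and HMOX2, IREB2 and SLC11A2, and SLC11A2 and SLC40A1 in A549/DDP. FTH1 and FTL together made up 0.866% and 0.851% of all TPM in A549 and 1.22% and 1.05% in A549/DDP.

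Pairs of genes with linked roles were compared as ratios of TPM within a library, which does not depend on scaling between libraries. Such a ratio does depend on the effective length assigned to each gene in each library. The FTL to FTH1 ratio was 0.945 and 1.00 in A549 and 1.45 and 1.51 in A549/DDP. In the further, shallow A549 pair it was 2.75 and 3.28, above both A549/DDP libraries, so its direction depended on which A549 libraries were used. The HMOX1 to HMOX2 ratio was 0.452 and 0.276 in A549 and 2.32 and 2.57 in A549/DDP and 0.99 and 1.12 in the shallow pair, which rests on 2 to 8 counts a gene. The ratio of the importer TFRC to the exporter SLC40A1 was 26.2 and 44.1 in A549 and 12.3 and 14.8 in A549/DDP. In the shallow pair, with 1 and 2 counts of SLC40A1, it was 15.6 and 3.17, on both sides of A549/DDP. As a ratio of counts, TFRC to SLC40A1 was 28.4 and 20.7 in A549 and 6.68 and 8.99 in A549/DDP. These pairs include genes already called, and an exact permutation test, two-sided, of 2 against 2 libraries cannot go below p = 0.333, the value each ratio gave for the first A549 pair.

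**Figure D3:**
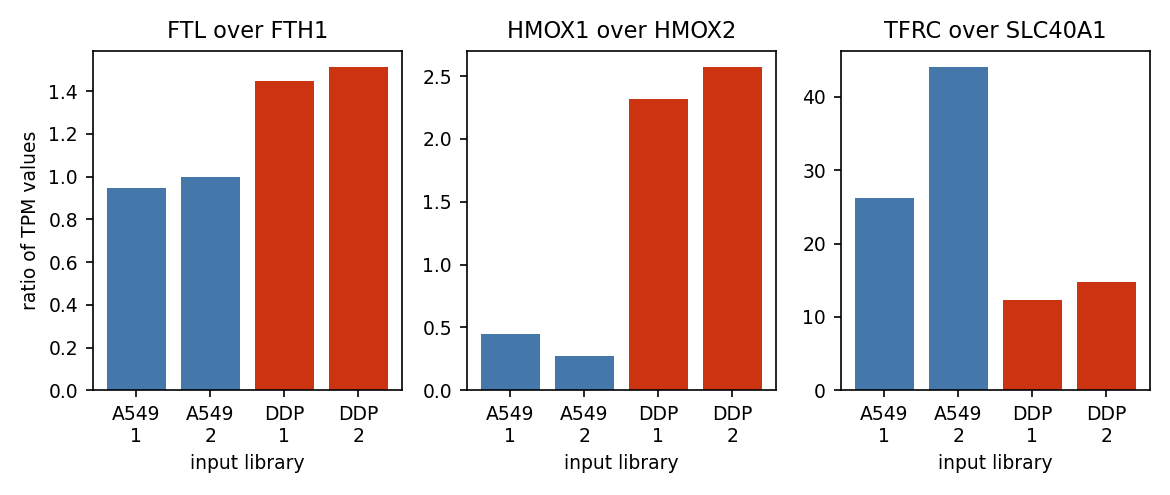
Ratios of TPM values (y axes, from 0) for FTL over FTH1, HMOX1 over HMOX2 and TFRC over SLC40A1, 1 bar for each A549 (first pair) and A549/DDP (DDP) input library. FTL over FTH1 and HMOX1 over HMOX2 are higher, and TFRC over SLC40A1 is lower, in both A549/DDP libraries than in these A549 libraries; the shallow A549 pair is not drawn, and there FTL over FTH1 was above A549/DDP.

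The wider heme and iron machinery was read from a list of 78 genes in 9 roles, the 10 genes included. Of these, 73 passed the filter on low counts, and 13 were higher and 1 lower in A549/DDP, or 19.2% called, beside 14.9% of all genes tested (6.85% higher and 8% lower). With at least 10 counts in every library, 22 of 71 were called, 18 of them higher. This stood beside 3614 of 12840 genes at the same setting, 1746 of them higher. ALAS2, STEAP4, FTMT, HEPH and HAMP did not pass the main filter. The median log2 fold change of the 73 was 0.42, beside 0.00 for all genes tested. Without the 10 genes, 9 of 63 were higher and 1 lower, or 15.9% called, close to the share over all genes, so the counts by role are given as a description. The wider list, too, was chosen with earlier results of these data known.

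Of the heme synthesis genes, 1 of 8 was higher. UROD, the uroporphyrinogen decarboxylase, was at 9.88 and 10.9 CPM in A549 and 31.1 and 31.0 CPM in A549/DDP, a log2 difference of 1.58 (adjusted p = 0.025). Of 5 genes of heme breakdown, HMOX1 and POR were higher, the latter encoding the reductase that passes electrons to the heme oxygenases. POR was at 54.7 and 74.7 CPM in A549 and 143 and 129 CPM in A549/DDP, a log2 difference of 1.07 (adjusted p = 0.0272). Among 10 genes of heme and porphyrin transport, 2 were higher. They were SLC46A1, a folate carrier also described as a heme carrier, with a log2 difference of 1.24 (adjusted p = 0.0375), and the low-abundance FLVCR2, at 0.58 and 1.18 CPM against 11.6 and 6.97 CPM (adjusted p = 0.0497).

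Iron uptake and reduction had genes in both directions, 2 higher and 1 lower of 10 tested. STEAP3, the endosomal ferrireductase that works beside TFRC, was at 27.8 and 54.8 CPM in A549 and 115 and 104 CPM in A549/DDP (log2 difference 1.41, adjusted p = 0.0431). SLC39A14, a carrier of iron not bound to transferrin, was at 260 and 226 CPM in A549 and 138 and 123 CPM in A549/DDP, and its log2 difference of -0.90 (adjusted p = 0.023) was the 1 fall among the 73 genes in this fit. SLC39A8, another carrier of unbound iron, had a log2 difference of 0.76 that did not pass (adjusted p = 0.208), and limma on log2(TPM + 1) called none of the 10 uptake genes in either direction.

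Both export genes that were tested were higher, SLC40A1 and CP. CP encodes ceruloplasmin, the ferroxidase that oxidizes the iron ferroportin releases. Its level was 5.68 and 5.92 CPM in A549 and 151 and 171 CPM in A549/DDP, a 27.7-fold difference (log2 4.79, 95% interval 4.26 to 5.33, adjusted p = 0.00156). Of the 5 storage and release genes, FTL was joined by PCBP1, a chaperone that delivers iron to ferritin, at 188 and 124 CPM in A549 and 351 and 384 CPM in A549/DDP (log2 difference 1.23, adjusted p = 0.0218). NCOA4, the receptor that takes ferritin to lysosomes, was at 232 and 149 CPM in A549 and 177 and 200.98 CPM in A549/DDP, and its values overlapped.

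Of the 6 sensing genes, ACO1, which encodes a cytosolic aconitase that acts as an iron regulatory protein when it lacks its iron-sulfur cluster, was higher, with a log2 difference of 1.04 (adjusted p = 0.0297). The other 5, IREB2 and BACH1 (the repressor of HMOX1 that binds heme) among them, did not pass. None of 18 genes of mitochondrial iron and iron-sulfur assembly passed in edgeR, where 3 were lower at an unadjusted p under 0.05, while DESeq2 called 2 lower and limma on log2(TPM + 1) 1 lower. The median of their log2 differences was 0.10. Of 9 cytosolic iron-sulfur assembly genes, CIAO1 was higher (log2 difference 0.72, adjusted p = 0.0435). In the same limma fit, none of 5 sensing and none of 9 cytosolic assembly genes was called. That fit called 1 gene higher in each of heme breakdown, transport and export, and 2 in each of heme synthesis and iron storage.

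**Figure D4:**
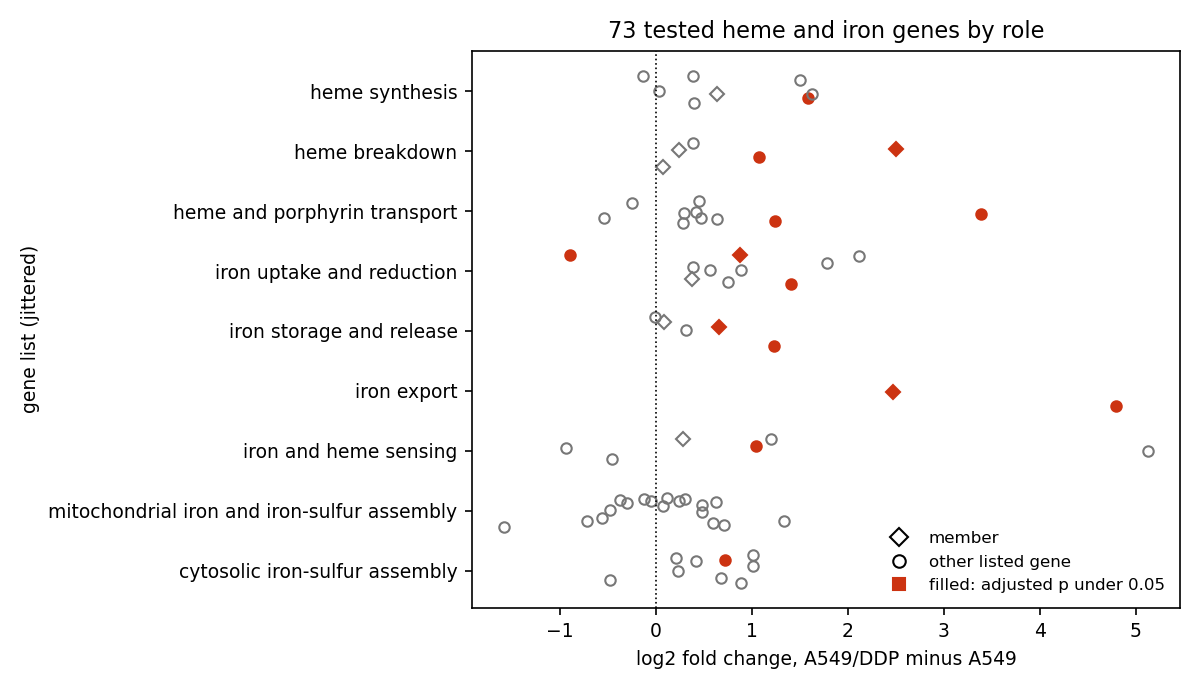
Log2 fold change (x axis, A549/DDP minus A549 inputs) of the 73 tested heme and iron genes by role (y axis, points jittered), with diamonds for the 10 genes and filled symbols for an adjusted p under 0.05. In this fit, filled points lie to the right of 0 except for SLC39A14, and the mitochondrial list has none.

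Short control sequences are shown because several of these transcripts are known to be governed by promoter elements or by an iron-responsive element. RefSeq windows of 300 bases around gene starts (GRCh38.p14, 250 bases before and 50 after) were matched for 8 of the 10 genes. The 120 bases before the start are printed for 5 of them, the 3 genes that rose and have a window and the 2 others with a promoter match there, 5′ to 3′ on the gene's strand. Capitals mark ACGTG, a form of the hypoxia response core, or the antioxidant response core TGACNNNGC, on either strand. The other form of the hypoxia response core, GCGTG, was not searched and is not marked.
SLC40A1, chr2:189580787-189580906, minus strand: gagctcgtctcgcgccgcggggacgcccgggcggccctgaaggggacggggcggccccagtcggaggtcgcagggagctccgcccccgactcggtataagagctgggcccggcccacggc
TFRC, chr3:196082091-196082210, minus strand: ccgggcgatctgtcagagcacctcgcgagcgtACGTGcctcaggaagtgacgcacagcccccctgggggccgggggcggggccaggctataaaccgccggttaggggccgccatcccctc
FTL, chr19:48965189-48965308, plus strand: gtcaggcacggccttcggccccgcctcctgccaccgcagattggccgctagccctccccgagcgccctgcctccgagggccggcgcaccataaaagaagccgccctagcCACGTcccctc
FECH, chr18:57586703-57586822, minus strand: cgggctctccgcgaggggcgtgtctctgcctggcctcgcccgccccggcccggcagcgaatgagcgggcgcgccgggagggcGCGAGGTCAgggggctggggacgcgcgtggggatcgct
HMOX2, chr16:4474616-4474735, plus strand: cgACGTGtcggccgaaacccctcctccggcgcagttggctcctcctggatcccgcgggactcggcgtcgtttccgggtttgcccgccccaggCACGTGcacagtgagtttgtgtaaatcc

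ACGTG was found in the windows of FTL, HMOX2 and TFRC, and in 21.4% of the 35116 windows searched. The match of TFRC, which rose, lay 88 to 84 bases before the start, and that of FTL, which rose, 11 to 7 bases before it. HMOX2, which did not pass, had 2 such places, one of them a CACGTG that reads the same on both strands. TGACNNNGC was found for FECH only, 38 to 30 bases before the start, and in 13.35% of all windows. Matches were present in genes that rose and in genes that did not pass. HMOX1 and FTH1 had no window, and elements more than 250 bases before a start were not searched. The part of such elements in the RNA levels was not tested.

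The FTL window also holds the start of the mRNA, where an iron-responsive element lies. The stretch chr19:48965334-48965358 on the plus strand is shown with the bulged C, the 5 stem bases and the first 5 loop bases in capitals.
FTL iron-responsive element: tctcttgCTTCAACAGTGtttggac
The loop is CAGTG and the T after it, and the 5 bases before it pair with the 5 bases that follow it, counting G-T pairs. This shape was found in 37 of the 35116 windows (0.105%), and FTL was the only one of the 8 matched genes to have it there. The windows end 50 bases after the start, so elements further along the mRNAs of TFRC, SLC40A1 or SLC11A2 could not be found. FTH1 had no window.

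The second set of measurements asked where m6A was called on these transcripts. The authors called peaks for each m6A-seq library on its own, and the lists give exon blocks and a p-value but no read depth, so the depth is unknown. HMOX1, HMOX2, BLVRB and FTH1 had a called peak in all 4 lists, which was so for 13.9% of the 16389 tested genes with an unversioned identifier of their own. Peaks in both lists of A549 were called for 4 of the 10 genes and 27.1% of the tested genes, and in both lists of A549/DDP for 4 and 19.5%. FTL, TFRC, SLC40A1, IREB2 and FECH each had peaks in 1 list only, and SLC11A2 had none, so that 9 of the 10 genes had a peak in at least 1 list, beside 57.1% of the tested genes. No gene of the 10 had peaks in both lists of one line and in neither list of the other. The lists differed in size, with 26320 and 14576 peaks in A549 and 27244 and 10661 in A549/DDP.

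Merging peaks whose exon blocks shared at least 1 base gave 28 regions on the 9 genes, of which 5 were called in all 4 lists and 19 in 1 list. The 19 include 7 of IREB2 and 5 of FECH, all from A549/DDP replicate 1. Most of these share the same listed p-value within their gene, so they need not be separate calls. Regions of all genes were not counted, so these numbers are only a description. HMOX1 (chr22:35381096-35394207, hg38, plus strand) had its shared region at chr22:35386685-35390059, with 296 exonic bases common to all lists. The p-value of that region was 9.8e-07 and 0.0074 in A549 replicates 1 and 2 and 9.5e-08 and 4.9e-07 in A549/DDP. Peaks near the start of HMOX1, chr22:35381107-35381304, and in its last part, chr22:35393527-35393772, were called in both A549/DDP lists and in A549 replicate 1. Only A549 replicate 2 lacked them.

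FTH1 (chr11:61964285-61967634, minus strand) had a region at its 5′ end, chr11:61967363-61967660, in every list. The same 249 bases were common to all, with a p-value of 0.0011 and 0 in A549 replicates 1 and 2, and of 4e-11 and 1.3e-09 in those of A549/DDP. BLVRB (chr19:40447768-40465745, minus strand) had a shared region in its 5′ part and another in its 3′ part. Its p-values were 1.7e-06 to 5.2e-06 in the A549 lists and 6.5e-05 to 0.001 in the A549/DDP lists. HMOX2 (chr16:4474736-4510347, plus strand) had its shared region near the 3′ end, chr16:4505559-4509948, with 404 common bases.

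**Figure D5:**
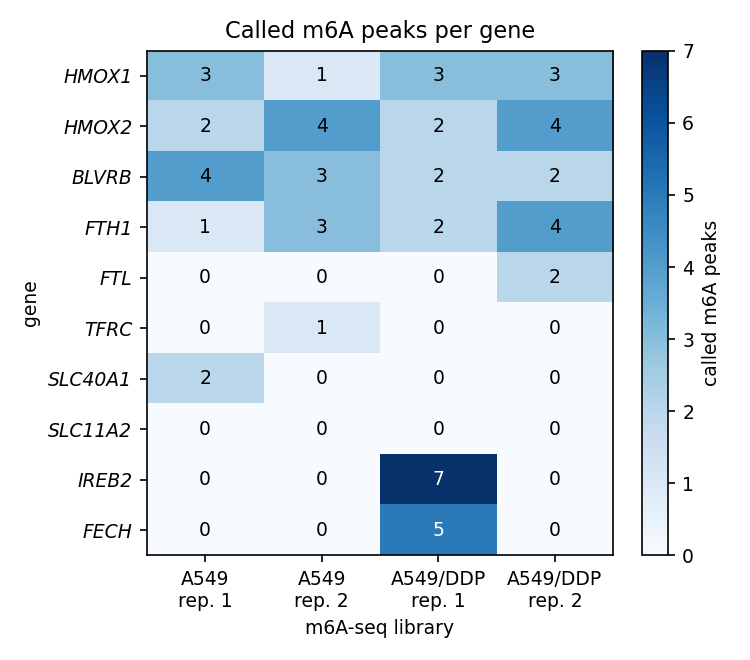
Number of called m6A peaks (colour and printed count) for each of the 10 genes (rows) in the 2 A549 and 2 A549/DDP m6A-seq libraries (columns). HMOX1, HMOX2, BLVRB and FTH1 have peaks in every column, and 5 genes have peaks in a single column.

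Peaks in a single list did not separate the lines. FTL (chr19:48965309-48966879, plus strand) had 2 peaks in A549/DDP replicate 2, both with a listed p-value of 0 and covering 684 bases. The first began at chr19:48965350, within the stretch of the iron-responsive element printed above. Both peaks are far longer than that element, so the place of m6A within them is not resolved. A link between m6A and the element was not tested. FTL had no called peak in A549/DDP replicate 1 although its RNA was at 3556 CPM in the input of the same number. TFRC had 1 peak, chr3:196051951-196053434, in A549 replicate 2, with a listed p-value of 0.004. SLC40A1 had 2, chr2:189562171-189563663 and chr2:189563762-189565388, in A549 replicate 1, with a listed p-value of 7.8e-08, in the line in which its RNA was lower. IREB2 had 7 peaks covering 1999 bases and FECH 5 covering 948 bases, all in A549/DDP replicate 1, the longest list. With a stricter limit of 1e-05 on the listed p-value, no gene of the 10 had peaks in all 4 lists, and with 10661 peaks taken from every list 1 gene did. The share over all tested genes was not counted at these settings, so these counts are only a description.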

How the data were processed

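Poly(A) RNA was isolated from total RNA by the authors, and strand-specific libraries were read in pairs. Per the labels, the submitters' processing notes name STAR, RSEM and bedtools and the build hg38, without versions or parameters; the peak caller is not given in the sources used here. The authors deposited, for each input library, expected counts per gene (estimates that need not be whole), and TPM and FPKM scaled by the authors for length and library size; FPKM was not used. For each m6A-seq library the deposited list gives 1 p-value per peak, and whether it is raw or adjusted is not stated. For the A549 m6A-seq libraries, the labels and the files number the replicates in opposite order, and the labels were used. The labels of the A549/DDP inputs give the title and cell type of A549/DDP but A549 as the source, and the title was followed.

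From these, expected counts were rounded to whole numbers, and edgeR 4.0.16 under R 4.3.3 was run with filterByExpr, TMM factors and its two-sided quasi-likelihood test (glmQLFTest). Benjamini-Hochberg adjustment covered 16406 genes at a threshold of 0.05. The standard error is the log2 fold change over the square root of F, an approximation. Alternatives used DESeq2 1.42.0, limma 3.58.1 on log2(TPM + 1) or log2(TPM + 0.1) for genes with a mean of at least 1 TPM, upper-quartile scaling, other filters, other A549 inputs and leaving out libraries. The edgeR step was tested on simulated data. Replicates of a line differed by more than sampling noise (chi-square per degree of freedom 83.1 and 53.5). Plots were drawn with matplotlib 3.10.9.

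Symbols came from Ensembl identifiers (56993 of 58037 matched). Promoter windows and gene spans are from RefSeq (GRCh38.p14), and peak positions are counted from 1. Named genes were the 10, the listed genes past the threshold (at most 4 of each role with the largest change), the numbered ferritin pseudogenes, NFE2L2 and KEAP1. NCOA4, BACH1 and SLC39A8 were named after their values were seen. The 10 genes and the lists were chosen with earlier results of these data known. A listed cell type marker is not reported here.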

Additional observations from a re-analysis of the deposited data

How the results depend on the processing

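HMOX1 stayed higher and past the threshold in all 14 alternatives, with a log2 difference of 2.04 to 2.67. Against 4 of the 10 genes, limma on log2(TPM + 1) and on log2(TPM + 0.1) called 2 each, both A549 pairs pooled 1, and leaving out 1 library 2 to 5. Against 14 of the listed genes, at least 10 counts in every library gave 22, both limma settings 8, the second A549 pair 25, both pairs pooled 2, and leaving out 1 library 6 to 21. Against 2437 of all genes, DESeq2 gave 4329, no filter 4010, limma 1492 and 1177, the second pair 3758, both pairs pooled 677, and leaving out 1 library 2052 to 3809. With at least 10 counts in every library, 3614 of 12840 genes were called, beside 22 of 71 listed genes. With the second pair, the median over all genes moved to 0.80. The sign turned for HMOX2 with limma (-0.21 in both), the second pair (-0.13) and both pairs (-0.067), and its range was -0.0215 to 0.14 with 1 library left out. BLVRB turned with the second pair (-0.84, adjusted p = 0.0344) and both pairs (-0.46), and FTH1 ranged from -0.058 to 0.19 with 1 library left out. The causes were not tested. Against 4 genes with a peak in all lists, a limit of 1e-05 left 0, lists of equal size 1, and leaving out 1 list 4 each time. Leaving out a list cannot lower this count. The share over all tested genes was not counted for these settings.

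As a replicate block, the numbers of the labels gave 4 of the 10 genes, 19 listed genes and 3536 of all genes, of which 2418 were among the 2437. Deviations of same-numbered libraries had a correlation of 0.021 over the genes tested. This value cannot show whether same-numbered libraries shared a preparation that moved some genes. Precision is limited by 2 libraries a line and, for peaks, by an unknown depth.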

Other observations

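The further pair of A549 inputs held 211799 and 256064 expected counts outside mitochondrial genes, and the 10 genes had few of them. FTL held 319 and 423 counts and FTH1 159 and 189. BLVRB held 18 and 25, IREB2 10 in each library, TFRC 7 and 8, HMOX1 4 in each library, HMOX2 2 and 8, FECH 2 and 4, SLC40A1 1 and 2, and SLC11A2 0 and 4. Per 1000000 counts outside mitochondrial genes, HMOX1 was at 18.9 and 15.6 there and at 25.3 and 21.9 in the first pair of A549 inputs. TFRC was at 33.1 and 31.2 there and at 100.5 and 161 in the first pair. Values of the 8 genes other than the ferritin chains rest on at most 25 counts a library.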
